A study of Mus musculus with 6 samples.

Results

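The 10 mouse genes described here are Ankrd33b, Sowahb, Kirrel2, Antxr1, Stac2, Exph5, Dkk3, Jdp2, Vipr1 and Mical2, which had the larger falls in brain RNA of mice given 4-aminopyridine. They were picked by that difference between the treated and control libraries, so the difference itself is described below and not tested. All 10 had enough reads to be among the 11388 genes tested, out of 55604 in each count table. The study sequenced brain RNA of C57BL/6 mice: 3 libraries after intraperitoneal injection of 4-aminopyridine (4-AP) and 3 from untreated animals (control). The total RNA of both groups had been digested with RNase R, an exonuclease that removes linear RNA and leaves circles. The sources used here give no dose of 4-AP, time to sampling, age of the mice or brain region. Counts add up all reads of a gene, circular and linear, and no label says whether each library came from its own animal, so every p-value below measures only the spread between these libraries.

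4-AP blocks voltage-gated potassium channels, which prolongs action potentials and provokes seizures; here it served to induce status epilepticus. The 10 genes do not form a pathway. Kirrel2, Antxr1 and Vipr1 encode membrane proteins (a nephrin-family adhesion molecule, a collagen-binding anthrax toxin receptor and a G protein-coupled receptor for the peptides VIP and PACAP), and Dkk3 encodes a secreted glycoprotein of the Dickkopf family that is found in neurons of cortex and hippocampus. Stac2 encodes an adaptor that binds L-type calcium channels, Exph5 an effector of the vesicle GTPase Rab27, and Mical2 an enzyme that oxidises actin. Jdp2 encodes a bZIP protein that pairs with Jun proteins and represses AP-1 sites, the sites through which Fos and Jun act after neuronal activity. Ankrd33b and Sowahb encode proteins with ankyrin repeats.

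Promoter sequence from RefSeq (assembly GRCm38.p6, the same assembly as mm10) was at hand for 7 of the 10 genes, all but Antxr1, Stac2 and Dkk3. The sequences are the 250 bases before an annotated start of 4 genes, 5′ to 3′ on the gene's own strand. They were chosen because Jdp2 held the single match to the motifs searched, Mical2 lies next to another of the 10 genes, Kirrel2 had the lowest fold change and Ankrd33b was the better counted of the genes with ankyrin repeats. Capitals mark a partial cAMP response element, TGACGT.
Jdp2 (second of 3 starts, chr12:85599166-85599415, plus strand): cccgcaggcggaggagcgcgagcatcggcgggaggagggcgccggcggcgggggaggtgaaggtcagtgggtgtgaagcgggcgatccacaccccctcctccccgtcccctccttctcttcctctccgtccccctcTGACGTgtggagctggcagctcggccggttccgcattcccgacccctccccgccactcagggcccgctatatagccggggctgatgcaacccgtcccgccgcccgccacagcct
Mical2 (chr7:112225586-112225835, plus strand): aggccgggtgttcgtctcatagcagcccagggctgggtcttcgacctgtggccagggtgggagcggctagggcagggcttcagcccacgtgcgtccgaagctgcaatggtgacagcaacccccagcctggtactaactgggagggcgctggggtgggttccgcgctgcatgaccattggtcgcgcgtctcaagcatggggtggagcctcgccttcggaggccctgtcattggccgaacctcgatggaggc
Kirrel2 (chr7:30457516-30457765, minus strand): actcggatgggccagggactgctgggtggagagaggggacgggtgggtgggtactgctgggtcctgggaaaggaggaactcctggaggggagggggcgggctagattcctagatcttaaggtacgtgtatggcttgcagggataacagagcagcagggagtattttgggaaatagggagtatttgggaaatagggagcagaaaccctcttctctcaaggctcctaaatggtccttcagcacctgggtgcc
Ankrd33b (chr15:31367760-31368009, minus strand): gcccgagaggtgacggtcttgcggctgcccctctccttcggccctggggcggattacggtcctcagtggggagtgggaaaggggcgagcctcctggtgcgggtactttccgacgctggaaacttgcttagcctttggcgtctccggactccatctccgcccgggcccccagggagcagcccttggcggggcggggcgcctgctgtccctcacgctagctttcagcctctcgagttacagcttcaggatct

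Motifs were searched on both strands of the 300-base windows, which run 50 bases past each start. They were the full cAMP response element TGACGTCA, the AP-1 site TGANTCA, the partial element TGACGT, the Egr site GCGGGGGCG and the E-box form CATCTG. Other forms of the E-box were not searched. The full cAMP response element contains the partial element. Of the 9 windows of the 7 genes, 1 held the partial element, 114 bases before the second Jdp2 start, against 7.51% of all 32851 windows. No window of the 7 genes held the other motifs searched, which 1.79% (full element), 7.81% (AP-1), 2.91% (Egr) and 17.2% (E-box form CATCTG) of all windows held. The 9 windows had a median GC content of 66.7% against 52.7% over all windows, from 48.7% in Exph5 to 74.3% at the second Jdp2 start.

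Total counts were between 1507882 and 2721287 in the 4-AP libraries and between 2355610 and 3409055 in the controls. Levels below are counts scaled to library size (CPM). Mitochondrially encoded genes took 1.23% to 2.35% of counts in 4-AP libraries and 0.564% to 1.17% in controls, and their part in the results was not tested. Control replicate 1 stood apart from all other libraries in markers of striatal projection neurons, which summed to 417 CPM there and to between 1404 and 2413 CPM in the other 5. It was also the high control for thalamic markers (198 CPM against 42.3 and 46.0 CPM) and hippocampal markers (357 CPM against 223 and 241 CPM). The main fit over all genes was repeated without it, as it was without each other library in turn. Other scalings, filters and methods were not refitted without it. Over all genes, 58 of 11388 (0.509%) were lower and 38 (0.334%) higher after 4-AP by the quasi-likelihood test of edgeR (adjusted p under 0.05). Leaving out control replicate 1, 2 or 3 gave 54, 24 or 10 lower genes, and leaving out 4-AP replicate 1, 2 or 3 gave 29, 36 or 10. The higher genes then numbered 105, 17 or 27 and 23, 91 or 16. All 3 4-AP libraries lay below all 3 controls in 10.4% of tested genes and above them in 8.36%, and 13.9% of tested genes had an unadjusted p under 0.05. DESeq2, used as an alternative, gave an adjusted p to 3661 of the tested genes, mostly those with many reads, and to 3 of the 10 genes. A count of 0 from DESeq2 below therefore speaks for the stated number of genes with such a value.

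All 10 genes are among the 58 called lower, and all 10 had every 4-AP library below every control (10.4% of tested genes did); both follow from how they were picked and carry no weight here. Their log2 fold changes (4-AP minus control) ran from -1.83 to -0.94 with a median of -1.24, where the median of all tested genes was -0.0076. In a bulk sample, fewer cells of a type and less RNA per cell cannot be told apart. The RNA was also digested with RNase R before it was counted. These values are thus levels in the RNA left after digestion of the whole tissue piece. The part of digestion in the differences was not tested. The reads behind a value differed widely, from 24 over the 3 4-AP libraries for Antxr1 to 728 for Mical2. Per kilobase of exon, Dkk3 had the highest level of the 10 in the digested RNA of control brain, at 59.2 CPM per kb. Mical2 (15.98 CPM per kb), Jdp2 (15.7) and Ankrd33b (15.2) lay close together below it, then Stac2 (11.5), Sowahb (8.58), Vipr1 (5.56), Kirrel2 (3.90), Exph5 (3.07) and Antxr1 (1.40).

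**Figure D1:**
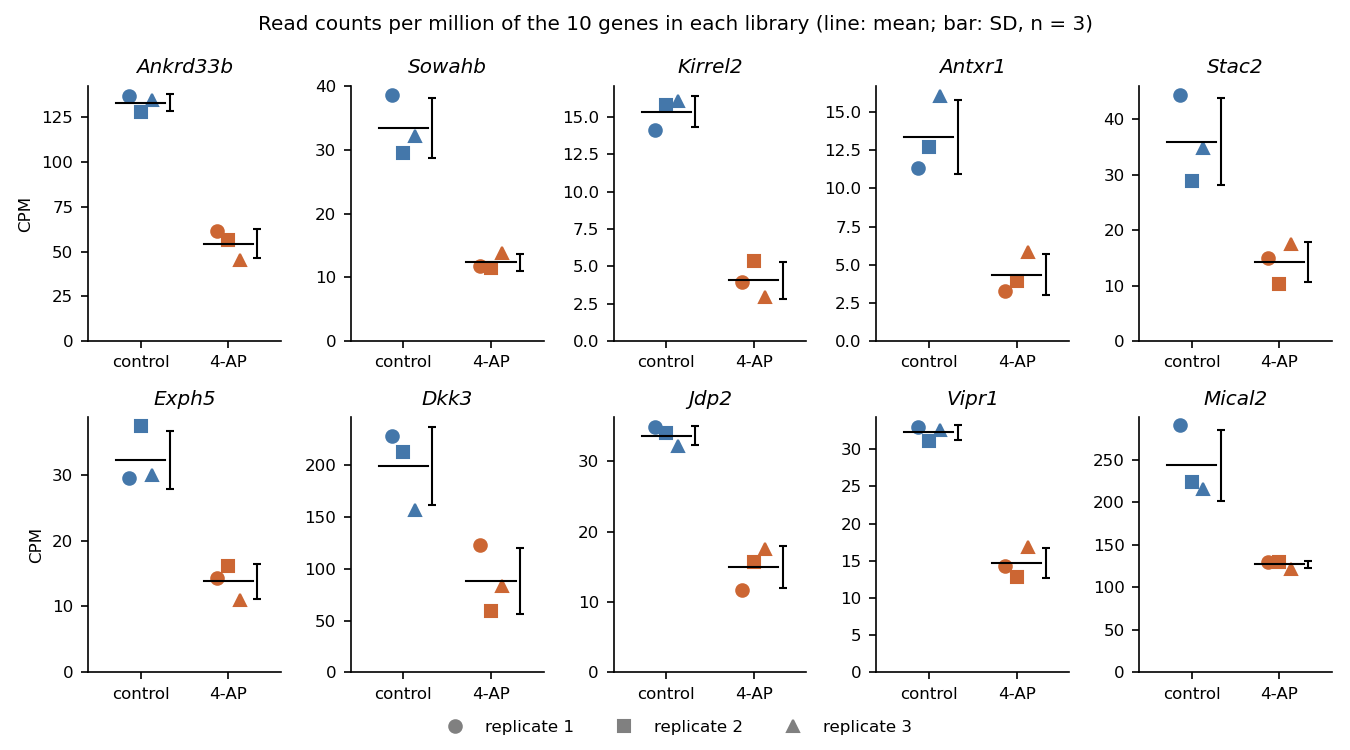
CPM (vertical axis, linear, starting at 0) of each of the 10 genes in the 3 control (blue) and 3 4-AP (orange) libraries, with marker shapes for replicate numbers, lines for means and bars for the SD (n = 3). Every 4-AP point lies below every control point, with the narrowest gap in Dkk3, between 156 CPM in control replicate 3 and 123 CPM in 4-AP replicate 1.

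Of the genes for surface and secreted proteins, Kirrel2 had the lowest fold change. Kirrel2 (chr7:30447534-30457690, minus strand) was at 14.1, 15.8 and 16.1 CPM in control replicates 1 to 3 and at 3.91, 5.36 and 2.92 CPM in the 4-AP libraries, a log2 fold change of -1.83 (SE 0.37). The controls were tight and the lowest of them was 2.64 times the highest 4-AP value, but the 4-AP values rest on 25 reads in all, against 142 in the controls. In olfactory neurons Kirrel2 and its paralogue Kirrel3 are known to sort axons according to activity. The paralogues Kirrel, at 6.82 CPM in 4-AP and 7.22 CPM in control brain, and Kirrel3, at 48.0 and 43.6 CPM, were not called (edgeR adjusted p = 0.969 and 0.816). None of the 5 tested genes of the nephrin family and its slit diaphragm partners passed, 1 of them had an unadjusted p under 0.05, limma-voom called 0, and DESeq2 called 0 of the 3 to which it gave an adjusted p. The partners with the smallest p were Cd2ap (log2 0.42, SE 0.20) and Cask (-0.21, SE 0.17), both intracellular scaffold proteins.

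Antxr1 (chr6:87133853-87335821, minus strand), known from blood vessels and fibroblasts as well as other cells, was at 11.3, 12.7 and 16.1 CPM in the controls. It was at 3.26, 3.93 and 5.85 CPM in the 4-AP libraries, a log2 fold change of -1.63 (SE 0.39) from 24 reads against 121. Replicate 3 was the highest library in both groups, and the groups did not overlap. The paralogue Antxr2 had too few reads to test, 22 in the 4-AP and 21 in the control libraries. Of 9 tested endothelial and mural markers and 6 of meningeal and vascular fibroblasts none passed edgeR's test, with medians of -0.13 and -0.07. Summed endothelial and mural markers overlapped between 157 and 206 CPM in 4-AP libraries and 159 and 208 CPM in controls, and the fibroblast markers between 106 and 129 CPM and 83.5 and 139.5 CPM. In those lists 0 and 2 genes had an unadjusted p under 0.05, limma-voom called 0, and DESeq2 gave an adjusted p to 1 and 0 genes and called 0. The 2 fibroblast genes were the matrix genes Dcn, at 7.78 CPM in 4-AP and 3.54 CPM in control brain (log2 1.16, SE 0.48), and Col3a1, at 24.3 and 14.4 CPM (0.73, SE 0.28). Both had every 4-AP library above every control, as 8.36% of all tested genes did, and neither was called (edgeR adjusted p = 0.271 and 0.218). Their direction was opposite to that of Antxr1, while the other 4 tested fibroblast markers lay below 0. Among collagens and other listed partners of the receptor 0 of 6 passed edgeR's test, 0 had an unadjusted p under 0.05, limma-voom called 0 and DESeq2 0 of the 1 with an adjusted p. Lrp6 was at 0.26 (SE 0.14) and Col1a1 at -0.34 (SE 0.28).

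Dkk3 (chr7:112116017-112159057, minus strand) was the most variable of the 10 within 4-AP brain. It stood at 228, 213 and 156 CPM in the controls and at 123, 59.7 and 83.3 CPM in the 4-AP libraries, a log2 fold change of -1.19 (SE 0.23). Without 4-AP replicate 1, the highest of its group, the log2 fold change was at its lowest over the fits that left out 1 library, and these ran from -1.50 to -0.92. Other Dickkopf genes had few reads: over the 3 4-AP and the 3 control libraries Dkk1 had 1 and 0, Dkk2 7 and 6 and Dkk4 0 and 0, too few for any difference to be detectable. None of the 5 tested genes of the list of Dickkopf relatives, Wnt coreceptors and Wnt inhibitors passed edgeR's test, 0 had an unadjusted p under 0.05, limma-voom called 0 and DESeq2 0 of the 1 with an adjusted p. Kremen1, a Dickkopf coreceptor, was at -0.34 (SE 0.23).

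Vipr1 (chr9:121642716-121672954, plus strand) encodes VPAC1, a receptor coupled to stimulation of adenylyl cyclase that is known from cortex and hippocampus. It had 33.002, 31.1 and 32.6 CPM in the controls and 14.3, 12.9 and 16.8 CPM in the 4-AP libraries, a log2 fold change of -1.15 (SE 0.24). The controls differed among themselves by an SD of 0.986 CPM, the smallest of the 10 genes, and the lowest lay 1.85 times above the highest 4-AP value. Other genes of the VIP and PACAP system were not called, and their differences from that of Vipr1 were not tested. The PACAP receptor Adcyap1r1 was at 157 CPM in 4-AP and 162 CPM in control brain (log2 -0.04, SE 0.17), the peptide genes Vip and Adcyap1 at -0.55 (SE 0.36) and -0.13 (SE 0.36), and the G protein gene Gnas at 0.28 (SE 0.18). Vip had every 4-AP library below every control, as 10.4% of all tested genes did (7.42 against 11.1 CPM in the mean, from 43 and 99 reads). None of the 5 tested passed edgeR's test, 0 had an unadjusted p under 0.05, limma-voom called 0 and DESeq2 0 of the 3 with an adjusted p. The receptor gene Vipr2 had too few reads to test, 29 in the 4-AP and 13 in the control libraries.

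Of the genes for intracellular effectors, Stac2 (chr11:98036623-98053462, minus strand) was at 44.3, 28.8 and 34.8 CPM in the controls. Its 4-AP values were 14.99, 10.4 and 17.5 CPM, a log2 fold change of -1.38 (SE 0.26). Replicate 2 was the lowest library in both groups. Stac2 was the 1 member of its family with many reads, since Stac had 9 in the 4-AP and 18 in the control libraries and Stac3 1 and 11. The genes for the channels that STAC proteins bind were not called lower: Cacna1c, encoding CaV1.2, was at 304 CPM in 4-AP and 217 CPM in control brain (log2 0.49, SE 0.14; edgeR adjusted p = 0.0937), and Cacna1d at 51.7 and 49.7 CPM. Of 10 tested genes of that list none passed, 3 had an unadjusted p under 0.05, DESeq2 called 1 of the 8 with an adjusted p and limma-voom 0. The beta subunit gene Cacnb4 was at -0.45 (SE 0.18).

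Exph5 (chr9:53301670-53377514, plus strand) was at 29.5, 37.3 and 29.9 CPM in the controls and at 14.3, 16.1 and 10.96 CPM in the 4-AP libraries. The log2 fold change was -1.20 (SE 0.25), and replicate 2 was the highest in both groups. Among Rab27 and its other effectors a further gene fell, Sytl2, which encodes a synaptotagmin-like protein. Sytl2 went from 40.6 ± 6.49 CPM to 19.0 ± 1.65 CPM (SD, n = 3 each) (log2 -1.11, SE 0.23; edgeR adjusted p = 0.0204). It was the 1 called gene of 6 tested, and of 6 fits with a library removed it held in 1, the one without control replicate 1 (highest adjusted p = 0.106 over the 6). The related genes did not share one direction: Rph3a, for the synaptic vesicle protein rabphilin, was at -0.58 (SE 0.15), Rab27b at -0.62 (SE 0.33), Rab27a at 0.92 (SE 0.36) and Sytl5 at 0.92 (SE 0.36), and none of these passed. The list median was -0.32, and 4 of the 6 had an unadjusted p under 0.05.

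Mical2 (chr7:112225856-112413106, plus strand) had the smallest difference and the most reads of the 10. It was at 291, 224 and 215 CPM in the controls and at 130, 129 and 122 CPM in the 4-AP libraries, a log2 fold change of -0.94 (SE 0.15). The 4-AP libraries agreed closely (SD 4.32 CPM), and control replicate 1 was the high one of its group. Its paralogues were not called, Mical1 at 9.75 CPM in 4-AP and 10.2 CPM in control brain and Mical3 at 98.2 and 109.9 CPM, nor was the actin gene Actb at 685 and 686 CPM. MICAL enzymes act downstream of plexin A receptors and feed into actin-dependent transcription by SRF. Of 15 tested genes of that list none passed edgeR's test, 5 had an unadjusted p under 0.05, DESeq2 called 1 of the 9 with an adjusted p and limma-voom 0. The plexin genes Plxna4, at -0.63 (SE 0.16; edgeR adjusted p = 0.0568), and Plxna1, at -0.51 (SE 0.19), had the smallest p. Srf was at -0.09 (SE 0.20).

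Jdp2 (chr12:85599027-85639878, plus strand), the 1 transcription factor gene of the 10, was at 34.9, 34.0 and 32.1 CPM in the controls. It was at 11.7, 15.7 and 17.5 CPM in the 4-AP libraries, a log2 fold change of -1.16 (SE 0.24). The controls lay close together (SD 1.40 CPM) and every 4-AP library lay well below them. Of the AP-1 and ATF genes listed as its partners or relatives 9 were tested, with a median of -0.44, and 1 fell: Fosl2 went from 89.1 ± 29.7 CPM to 41.0 ± 4.11 CPM (SD, n = 3 each; log2 -1.12, SE 0.22; edgeR adjusted p = 0.0146). Fosl2 lost its call without 4-AP replicate 1 or 4-AP replicate 3 (highest edgeR adjusted p = 0.0765). Of the 9, 5 had an unadjusted p under 0.05, DESeq2 called 1 of the 3 with an adjusted p, and limma-voom called 0, Fosl2 included. Fosb, at -0.97 (SE 0.28), and Fos, at -0.95 (SE 0.27), did not pass (edgeR adjusted p = 0.0937 for both), and Jun was at 0.21 (SE 0.23).

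The 2 genes with ankyrin repeats were Ankrd33b and Sowahb. Ankrd33b (chr15:31291478-31367726, minus strand) was at 137, 128 and 135 CPM in the controls and at 61.3, 56.5 and 45.3 CPM in the 4-AP libraries, a log2 fold change of -1.29 (SE 0.17). Both groups were tight, with the lowest control 2.09 times the highest 4-AP library. Sowahb (chr5:93041123-93045022, minus strand), annotated with 1 exon where the other 9 genes have between 7 and 39 separate exonic stretches, was at 38.7, 29.6 and 32.1 CPM in the controls. Its 4-AP values were 11.7, 11.4 and 13.9 CPM, a log2 fold change of -1.45 (SE 0.25). The gap between its groups was 2.13-fold. Of the relatives, Sowaha was at 81.4 CPM in 4-AP and 117 CPM in control brain (log2 -0.50, SE 0.22) and Sowahc at 13.9 and 9.35 CPM (0.60, SE 0.33). Neither passed edgeR's test, 1 had an unadjusted p under 0.05, limma-voom called 0 and DESeq2 0 of the 1 with an adjusted p.

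The limit of the choice can be read from the 58 called falling genes ranked by fold change. The 10 genes held ranks 1, 3, 5, 6, 8, 9, 10, 11, 12 and 21. The small nuclear RNA genes Gm22068 (-1.69) and Gm23804 (-1.50) and the histone gene Hist1h3i (-1.36) lay among the first 12 and are not in the set. Vipr1 at -1.15 was followed by Ier5 at -1.13, an activity-regulated gene, and by 7 more genes before Mical2: Fosl2, Sytl2, Epop, Adcy1, Polr2a, Clcn2 and Neurod2. Just past Mical2 at -0.94 came Diras2 at -0.89, Synpo at -0.86, Castor2 at -0.86, Iqsec2 at -0.85 and Inka2 at -0.83. The set is thus not separated from the next genes by a step.

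Markers of cortical excitatory neurons, a list that holds none of the 10 genes, were lower in 4-AP brain. Of 13 tested, 5 fell (0.509% of all tested genes did) and 12 lay below 0, with a median log2 fold change of -0.74. Every 4-AP library lay below every control in 9 of them, as in 10.4% of all tested genes. The genes that fell were Slc17a7 (-0.79, SE 0.15), the vesicular glutamate transporter of cortex, Nptx1 (-0.82, SE 0.16), a synaptic pentraxin, the transcription factor genes Mef2c (-0.72, SE 0.16) and Neurod2 (-0.96, SE 0.22), and Nrgn (-0.79, SE 0.17), for a postsynaptic calmodulin-binding protein, with edgeR adjusted p between 0.0136 and 0.0379. Tbr1 (-0.88, SE 0.21) and Emx1 (-1.23, SE 0.30) did not pass (edgeR adjusted p = 0.0540 and 0.0559). Leaving out 4-AP replicate 1, 2 or 3 turned the count of 5 into 7, 2 or 0, and leaving out control replicate 1, 2 or 3 turned it into 4, 1 or 0. The list was chosen with this fall already known, so it is no independent evidence.

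Lists for single cortical layers moved less, and none of their genes passed edgeR's test. Upper-layer markers had a median of -0.28 (9 tested, 4 with an unadjusted p under 0.05), with Cux2 at -0.62 (SE 0.19) and Rorb at -0.52 (SE 0.20). Of the 9, 6 lay below 0 and 3 above, and 1 of the 4 was higher after 4-AP, Otof at 0.56 (SE 0.24). Layer 5 markers had a median of -0.42 (7 tested, 2 with an unadjusted p under 0.05), with Etv1 at -0.62 (SE 0.27) and Fezf2 at -0.99 (SE 0.44). Layer 6 markers had a median of 0.04 (7 tested, 2 with an unadjusted p under 0.05), with Tle4 at 0.47 (SE 0.16) and Ccn2 at -1.13 (SE 0.51). Of these 3 lists limma-voom called 0 genes, and DESeq2 called 0 of the 3, 1 and 1 genes with an adjusted p. Whether the lists differ from each other was not tested.

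**Figure D2:**
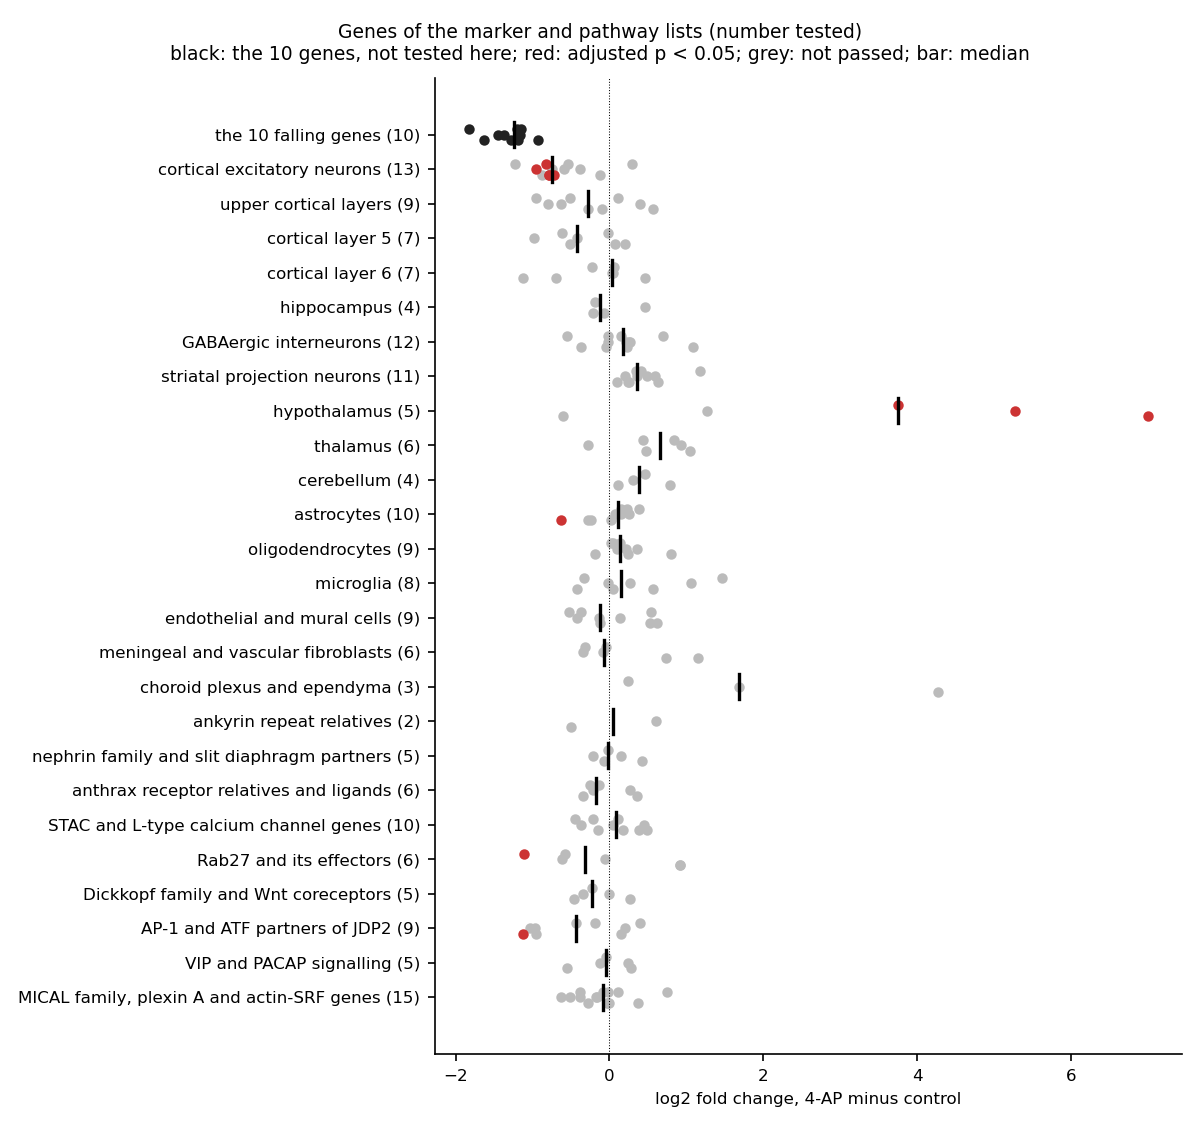
Log2 fold change (horizontal axis, 4-AP minus control) of each tested gene in the marker and pathway lists, with the 10 genes in black at the top, called genes in red, others in grey and a bar at each median. The 10 genes lie between -1.83 and -0.94, the cortical excitatory markers have a median of -0.74 and most other lists have medians near 0; Oxt, the rightmost point, had 0 reads in all controls, so its fitted value is not a measured fold.

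In the lists for other regions and cell types 3 genes rose, all hypothalamic, and 1 fell. The hypothalamic list summed to between 50.03 and 78.9 CPM in 4-AP libraries and between 6.25 and 19.2 CPM in controls. Of 5 tested, the peptide genes Oxt (36 reads after 4-AP against 0), Avp (77 against 3) and Trh (115 against 14) rose by edgeR's test and by limma-voom (3 of 5), while DESeq2 gave none of the 5 an adjusted p and called 0. Th (1.26, SE 0.51) and Pomc (-0.60, SE 1.14) did not pass. Choroid plexus and ependymal markers summed to between 25.4 and 101 CPM against between 10.9 and 26.3 CPM, with Ttr at 4.27 (SE 1.51) and Clic6 at 1.68 (SE 0.51), neither called. Ttr was at 5.22, 55.0 and 7.31 CPM in 4-AP replicates 1 to 3, so the size of its value rests mainly on replicate 2. Of 10 astrocyte markers 1 fell, the glutamate transporter gene Slc1a2 (-0.63, SE 0.14; edgeR adjusted p = 0.0328, lost when replicate 1 or 3 of the 4-AP group or replicate 2 or 3 of the control group was left out). No gene was called in the lists for hippocampus (median -0.13), GABAergic interneurons (0.18), striatal projection neurons (0.36), thalamus (0.66), cerebellum (0.38), oligodendrocytes (0.13) and microglia (0.15). In those 7 lists, unadjusted p-values under 0.05 were found for 1, 1, 0, 0, 0, 1 and 3 genes, limma-voom called 0, and DESeq2, which gave an adjusted p to 2, 7, 9, 0, 0, 6 and 2 of their genes, called 1 interneuron and 1 microglia gene. Summed microglia markers lay between 469 and 576 CPM in 4-AP libraries and between 391 and 453 CPM in controls. Most of these sums was a single gene, Cx3cr1, at 374 CPM in 4-AP and 252 CPM in control brain in the mean (edgeR adjusted p = 0.0593). Of the 8 tested microglia markers 5 lay above 0 and 3 below. The cerebellar granule cell marker Gabra6 was at 0 in all libraries. The part of the makeup of the tissue piece in the difference of the 10 genes was not tested.

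Whether the 10 genes follow cortical markers from library to library was read inside each group, since the difference between the groups had chosen them. As a mean of log2 CPM, the 10 genes stood at 5.66, 5.56 and 5.55 in control replicates 1 to 3 and at 4.33, 4.26 and 4.35 in the 4-AP libraries. Their mean thus varied by 0.11 among controls and 0.08 among 4-AP libraries. The cortical excitatory list varied more, by 0.23 and 0.42, with 7.20, 7.23 and 6.996 in the controls and 6.77, 6.45 and 6.35 in the 4-AP libraries. The orders did not match: 4-AP replicate 3 was lowest for the cortical list and highest for the 10 genes, and control replicate 2 was highest for the cortical list but not for the 10 genes. Across the 6 libraries with group means removed, Pearson's r between both means was 0.23, a description over 6 points that share library depth. For the layer lists r was 0.48 (upper layers), 0.39 (layer 5) and -0.78 (layer 6), and for lists of other regions it ran from -0.86 (striatal projection neurons) to 0.70 (hippocampus).

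**Figure D3:**
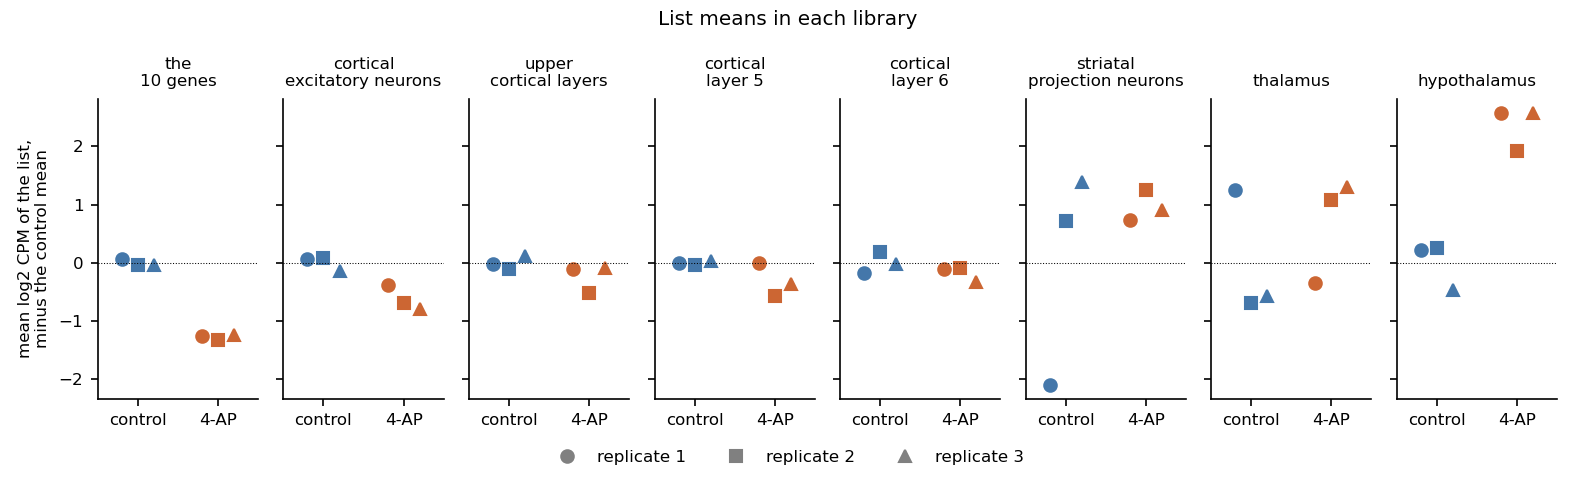
Mean log2 CPM of the 10 genes and of 7 marker lists in each library, each minus its mean over the controls, with controls in blue, 4-AP libraries in orange and marker shapes for replicate numbers. The 10 genes form a tight cluster in each group, the cortical excitatory list spreads over 0.42 in 4-AP brain, and control replicate 1 stands at -2.10 in the striatal list.

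Single genes differed in this respect. With group means removed, Dkk3 (r = 0.81) and Ankrd33b (r = 0.68) deviated with the cortical excitatory list over the 6 libraries. Antxr1 (r = -0.88) and Jdp2 (r = -0.75) deviated against it, and 5 of the 10 had a positive r. Values of like size were found with other lists and are not particular to cortex. Dkk3 had r = 0.86 with the hypothalamic list, Jdp2 0.73 with the thalamic list and Ankrd33b 0.61 with the astrocyte list. Nor did the 10 genes deviate together: of their 45 pairs 22 had a positive r, with a median of -0.05. Within-group deviations of genes with few reads are partly counting error, so a weak r here is no finding. Control replicate 1, low in striatal markers, was the highest control for 7 of the 10 genes and the lowest for 3 (Kirrel2, Antxr1 and Exph5). Without it the median of the 10 genes was -1.22 in place of -1.24.

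By genome position, 2 of the 10 genes are neighbours. Dkk3 and Mical2 lie on opposite strands of chromosome 7 and are transcribed away from each other, with starts 66.8 kb apart and no protein-coding gene between them. The genes on either side of the pair were not called: Usp47, 4.36 kb beyond the end of Dkk3, was at 60.3 CPM in 4-AP and 62.0 CPM in control brain, and Parva, 14.4 kb beyond the end of Mical2, at 23.4 and 23.7 CPM. Jdp2 has Fos as its nearest tested gene on the side of lower coordinates, 122 kb away, at 25.1 CPM in 4-AP and 47.4 CPM in control brain. Kirrel2 ends 2.0 kb from Aplp1, at 721 and 966 CPM (log2 -0.42, SE 0.13; edgeR adjusted p = 0.126).

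Over all 10 genes, 54 distinct neighbours (the 3 nearest tested genes on each side, without the 10 genes themselves) had a median log2 fold change of -0.04, and 30 lay below 0. None was called by edgeR, limma-voom called 0, and DESeq2 called 2 of the 23 with an adjusted p. An unadjusted p under 0.05 was found for 12 of the 54, where 13.9% of all tested genes had one. Shroom3 next to Sowahb (-1.12, SE 0.44) and Arhgap25 next to Antxr1 (-1.35, SE 0.54) were low but rested on few reads, at 4.25 and 2.95 CPM in 4-AP brain. The nearest genes on the other side of these, Sept11 (-0.36, SE 0.19) and Gfpt1 (0.09, SE 0.23), did not pass. Around Ankrd33b the nearest were Ctnnd2 (-0.04) and March6 (-0.36), around Stac2 the ribosomal protein gene Rpl19 (0.36) and Fbxl20 (-0.06), around Exph5 Ddx10 (0.20) and Atm (0.09), and around Vipr1 Cck (-0.35) and Sec22c (-0.08). Arhgap33 (-0.33) and Erg28 (0.16) were the nearest on the far sides of Kirrel2 and Jdp2.

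**Figure D4:**
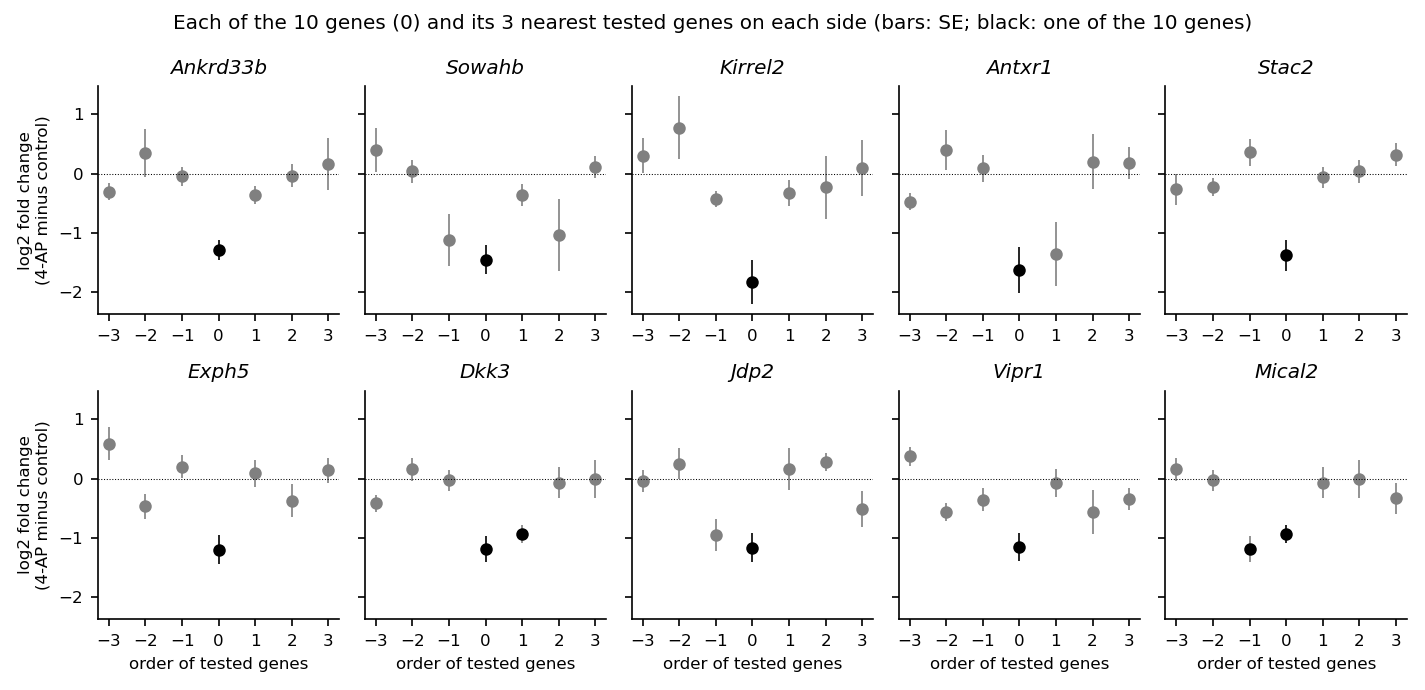
Log2 fold change (vertical axis, 4-AP minus control, bars SE) of each of the 10 genes at position 0 and of the 3 nearest tested genes on each side by order along the chromosome, with the 10 genes in black and neighbours in grey. Dkk3 and Mical2 appear as a black pair in both of their panels, and the neighbours, with a median of -0.04, scatter around 0.

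The genes most like the 10 in their levels across the 6 libraries were sought among 4774 other genes whose log2 CPM averaged 5 or more, by Pearson's r with the mean log2 CPM of the 10. The closest were D10Wsu102e (r = 0.998), Tnr (0.997), Usf3 (0.994), Hivep2 (0.993) and Ier5 (0.990), over 6 libraries, and the difference between the groups makes up most of this likeness. Their differences were smaller than those of most of the 10 genes, and Hivep2 and Ier5 were the called ones. Tnr, which encodes tenascin-R of the brain extracellular matrix, was at 242 CPM in control and 207 CPM in 4-AP brain (log2 -0.23, SE 0.14; edgeR adjusted p = 0.504). The zinc finger gene Hivep2 went from 364 ± 18.3 to 224 ± 10.9 CPM (SD, n = 3 each; log2 -0.71, SE 0.14; edgeR adjusted p = 0.0142).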

How the data were processed

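Whole-number read counts per gene were deposited by the authors, 1 table per library. The tools named per the submitters' processing notes are STAR 2.5.3a (an aligner) and featureCounts (a read counter), with mm10 as the build. For annotation release, strand setting and multi-mapping, the sources used here give nothing. Identifiers were matched without version to GENCODE M21 (54809 of 55604; the others held 0.0072% of counts). Coordinates are 1-based on mm10. The 10 genes share at most 7.68% of exonic bases with another gene (Jdp2). Libraries differed by more than sampling noise (chi-square per degree of freedom of at least 7.79). By this measure control replicate 3 was nearer to 4-AP replicates 2 and 3 (7.79 and 8.47) than to control replicates 1 and 2 (23.1 and 21.9). Control replicates 1 and 2 were near each other (8.26). Genes with at least 1 read numbered 17942 in control replicate 3, 20272 and 20157 in control replicates 1 and 2, and 17026 to 17988 in 4-AP libraries. The cause was not tested.

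Genes kept by filterByExpr (minimum count 10, minimum total 15) were scaled by TMM and tested with edgeR 4.0.16 (robust quasi-likelihood, group as the 1 term, R 4.3.3). P-values were adjusted by Benjamini and Hochberg's method, and genes under 0.05 were called. SE is the log2 fold change divided by the root of F. The common biological coefficient of variation from edgeR, the square root of its common dispersion, was 0.18. A count of 3 equals 0.778 to 2.19 CPM. Log2 CPM used a prior count of 2. The fit was tested on simulated data. DESeq2 1.42.0, limma-voom 3.58.1, other scalings and filters, a replicate block and each library left out were alternatives. The genes and the 25 lists (16 of markers, 9 of related genes) were chosen with earlier results of these data known. Named beside the 10 are called list genes, the 2 next by p, nearest neighbours, the next 5 falls and the 5 most alike genes; other named relatives were picked after their values were seen.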

Additional observations from a re-analysis of the deposited data

How the results depend on the processing

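The 10 genes were picked for their fall in these same libraries. Their direction and calls under other settings therefore describe the processing and carry no weight as support for that fall. They were lower in 4-AP brain in all 150 values from 15 alternatives, and 145 of these lay within 1 SD of the reported value. The exceptions were Kirrel2 at -2.11 without 4-AP replicate 2 and, with total counts only, Ankrd33b (-1.50), Sowahb (-1.66), Vipr1 (-1.36) and Mical2 (-1.16). The SD used differs between genes and is not the SE given with each fold change. The count of 145 thus does not compare shifts of equal size. Dkk3 at -1.50 without 4-AP replicate 1, against -1.19 in the main fit, was counted as within it. Of the alternatives that gave an adjusted p, Ankrd33b, Sowahb and Mical2 were called in all (15 of 15, 14 of 14 and 15 of 15), Dkk3 in 13 of 15, Stac2 in 12 of 14, Jdp2 in 10 of 14, Kirrel2, Exph5 and Vipr1 in 9 of 14 and Antxr1 in 5 of 14 (adjusted p from 0.0120 to 0.178 over edgeR and limma-voom). Dkk3 was not called without 4-AP replicate 3 (edgeR adjusted p = 0.175) or control replicate 2 (0.108). Total counts moved the median of all genes to -0.22, that of the 10 genes to -1.47 and that of the cortical excitatory markers to -0.98, with 293 genes called lower and 9 cortical markers. Genes called higher and lower numbered 82 and 111 with DESeq2, 131 and 197 without a filter on low counts (9 cortical markers) and 25 and 30 without the robust fit (2 cortical markers). With each library left out, higher calls ran from 16 to 105, lower calls from 10 to 54, cortical markers from 0 to 7 and the median of the 10 genes from -1.40 to -1.22. The cause of these shifts was not tested. The study's design text calls the tissue paired without saying what marks a pair, so whether replicate numbers mark pairs is not known. Deviations of libraries with the same number correlated at 0.02, 0.31 and 0.06 over 4777 genes, and 4-AP replicates 1 and 3 correlated better with another number. With 3 libraries in each group and group means removed, these values depend on each other and cannot decide the question. With the replicate block there were 112 higher and 153 lower genes and 9 cortical markers. With 24 to 86 reads in the 3 4-AP libraries for 7 of the 10 genes, their order by fold change is not resolved at this depth.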
